A study of Rattus norvegicus and Mus musculus with 14 samples.

Results

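The genes described here encode splicing factors and proteins that act beside them: Sf3a3, Prpf8, Son, Sfrs2, Safb2 and Pqbp1. They were taken as every probe on the array whose single gene symbol in the platform annotation was one of these 6 names. This gave 7 probes of the 1152 on the array, with 2 probes for Pqbp1 and 1 for each other gene. The 6 genes stand among 342 named by the annotation, which gives 1 symbol to 384 probes, several to 6 and none to 762. The rule itself uses names only, though the genes were picked with earlier results of these data known.

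The study compared transcript levels on a spotted cDNA array in cultured neurons and in brain cortex, over 14 arrays. The rat arrays held RNA of embryonic cortical neurons, in a MEK set and a NOS set, each with experiments 1 and 2. In each experiment of the MEK set, 1 culture sample received NMDA together with PD98059, 1 received NMDA alone, and 1 received the control solution that the labels call CSS. The NOS set had the same layout with nitroarginine in place of PD98059. NMDA activates a class of glutamate receptors that admit calcium, PD98059 blocks activation of the kinase MEK, and nitroarginine blocks nitric oxide synthases. The mouse arrays were 1 of adult nNOS knockout cortex and 1 of cortex of an adult wild-type littermate, both c57bl. Doses, exposure times, the age of the embryos, the age of the mice beyond adult, and the number of animals or cultures behind an array are not given in the sources used here. Each rat group had n = 2 arrays. No label says that they came from separate cultures, so p-values cover only the spread between arrays, which may be technical. In the main tests that spread also holds the difference between experiments 1 and 2.

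Splicing removes introns from pre-mRNA in the spliceosome, a large machine built from small nuclear ribonucleoproteins (snRNPs) and many accompanying proteins. Core subunits such as Sf3a3 and Prpf8 act on nearly every intron, whereas proteins with serine and arginine repeats, such as Sfrs2, help to choose which exons are kept. Many of these proteins gather in nuclear speckles, for which Son is a scaffold. Neurons use alternative splicing widely, for receptors, ion channels and synaptic adhesion proteins, and calcium entry is known to alter the splicing of some of these transcripts. The array measured the level of each factor's own transcript and not the splicing of any target.

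The promoters of Safb2 and Sfrs2 hold the longest run of bases shared by any pair of the 6 genes, and it is shown first. It was picked by length alone, without use of the array values. Both genes also had lower array values with NMDA than with control in all 4 rat experiments, as did 4.6% of all probes. The sequences come from the rat table of RefSeq, build GRCr8, which covers 250 bases before to 50 bases after each gene's start. The symbol Sfrs2 is the older name of Srsf2. Both genes lie on the minus strand, and the sequences read 5′ to 3′ along the gene, with the 13 bases that both promoters hold in capitals. Bases are counted from the start of transcription. In Safb2 the run covers bases 4 to 16 after the start, within chr9:1504119-1504148. In Srsf2 it covers bases -54 to -42, within chr10:102554175-102554204.
Safb2: ctctaaggcGGCGCCATTTTGTactcagag
Srsf2: ggtggcgcgGGCGCCATTTTGTgagggtgg

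This run was the longest shared by any of the 15 pairs of the 6 promoters and was found in 4 of 27457 promoters of the table, or 0.0146%. Those 4 include the 2 promoters it was picked from, so this share does not bear on a link between the genes. How often other pairs of promoters share a run as long was not counted. The run contains CCATNTT, the core of the motif of the transcription factor YY1. Searched on both strands, CCATNTT was in the promoters of Son, Safb2 and Srsf2, and in 18.5% of all promoters. The motif TGACG, the core of the cyclic AMP response element that the calcium-responsive factor CREB binds, was in the promoters of Son, Prpf8 and Safb2, and in 22.0% of all promoters. Son held it at 2 places. The windows of 30 bases around these matches are given with the motif in capitals, here as CGTCA because each lies on the strand opposite to the gene. They lie at chr11:44377759-44377788 and chr11:44377802-44377831 for Son (plus strand), chr10:60829674-60829703 for Prpf8 (plus strand) and chr9:1504192-1504221 for Safb2 (minus strand).
Son, bases -204 to -200: gtaatggcgcctgCGTCAaacactaacatg
Son, bases -161 to -157: tgcgcggcgcaaaCGTCAgcacctctaccc
Prpf8, bases -91 to -87: acgcgaattttacCGTCAattggggttttc
Safb2, bases -66 to -62: gacctaggaggtgCGTCAgagccgtgcgcc

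These matches describe letters in a window, and binding was not measured. The sequences of the array's own probes were not used here. The annotation gives rat transcripts for the Son, Sf3a3, Prpf8 and Safb2 probes, and mouse transcripts for the Sfrs2 probe and both Pqbp1 probes. Those with a mouse transcript were matched to the rat gene table by symbol, the others by gene ID.

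Each value was a Z-score, in which 0 is the mean of an array over its probes and 1 Z unit is about 1 SD over them. A probe's Z-score was compared between arrays, on the assumption that their scores are comparable. It was not compared with that of another probe, since brightness also depends on the spotted DNA. Fold changes cannot be derived from the scores. Mouse cortex differs from the rat cultures in species, age and tissue at once, so these cannot be told apart where cortex is set beside rat arrays. In the deposited table the column of the MEK set control of experiment 1 stood 1 row from its probes. Its correlation with the median array over the probes was 0.103 as deposited and 0.823 after it was moved down by 1 row, so the moved column was used. Even so it correlated with the other MEK set arrays at 0.858 to 0.867, against 0.971 to 0.995 among those 5. The arrays of NOS experiment 2 also stood apart, correlating at 0.454 to 0.617 with those of NOS experiment 1, although the 3 arrays of experiment 1 correlated with each other at 0.989 to 0.991. The differences and correlations that these arrays bear on most are given below without them too. The knockout could not be checked, since no probe was named Nos1.

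Sf3a3 encodes a subunit of SF3a, the part of the U2 snRNP that helps it to recognise the branch site of an intron. In the MEK set its values were 0.43 and 0.24 Z units with NMDA and PD98059 (experiments 1 and 2), 0.26 and 0.35 with NMDA, and 1.01 and 0.52 with control. Both control values lay above all 4 of the others. NOS set values were -0.10 and 0.24 with NMDA and nitroarginine, -0.04 and 0.29 with NMDA, and 0.22 and 0.17 with control. The 3 groups overlapped there. Cortex had -0.25 in the knockout, below all rat arrays, and 0.24 in the wild type, within their range.

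Prpf8 encodes the large protein at the heart of the U5 snRNP that holds the catalytic centre of the spliceosome. Its MEK set values lay between -1.35 and -1.03 in every array, with a median of -1.17, and the ranges of the 3 groups overlapped. In experiment 1 of the NOS set they were -1.43 with NMDA and nitroarginine, -1.33 with NMDA and -1.42 with control. These lay near or below the lower end of the MEK set range. Experiment 2 of that set gave -0.02, -0.52 and -0.36 in the same order of groups, all above the other 9 rat arrays. The mouse arrays, at -1.10 in the knockout and -1.15 in the wild type, fell within the range of the MEK set.

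Son encodes a large DNA- and RNA-binding protein that organises nuclear speckles and supports splicing of weak introns. Its values in the MEK set were 0.58 and 0.46 with NMDA and PD98059, 0.44 and 0.50 with NMDA, and 0.73 and 0.33 with control, and the groups overlapped. NOS set values were 0.06 and 0.015 with NMDA and nitroarginine, -0.11 and -0.64 with NMDA, and 0.0014 and -0.34 with control. There both nitroarginine values lay above the other 4, and the NMDA and control values overlapped. Every MEK set array was above every NOS set array. Cortex had -0.41 in the knockout and -0.71 in the wild type. The knockout value lay below all but 1 rat array, and the wild-type value below all 12.

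Sfrs2 encodes a serine and arginine-rich protein that binds exonic enhancers. Its values in the MEK set were 1.02 and 0.94 with NMDA and PD98059, 0.95 and 0.95 with NMDA, and 1.05 and 1.08 with control. The control values were the highest of the 6, close above the others. The probe stood in the NOS set at -0.73 and -0.81 with NMDA and nitroarginine, -0.91 and -1.31 with NMDA, and -0.87 and -0.57 with control. Both NMDA values were the lowest there, and the other groups overlapped. The cortex arrays both had -1.09. Thus the 6 MEK set arrays lay between 0.94 and 1.08, and the other 8 arrays of the series between -1.31 and -0.57.

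Safb2 encodes a scaffold attachment factor, a protein that binds both DNA and RNA and acts in transcription and RNA processing. With NMDA and PD98059 the MEK set values were -0.91 and -1.10, with NMDA -0.86 and -1.04, and with control -0.01 and -0.64. Both control values lay above the other 4. The NOS set gave -0.67 and -0.61 with NMDA and nitroarginine, -0.55 and -0.35 with NMDA, and -0.40 and 0.15 with control. The nitroarginine values were the lowest of that set, and the NMDA and control ranges overlapped, because the control of experiment 1 (-0.40) lay below the NMDA array of experiment 2 (-0.35). Cortex had -0.96 in the knockout and -0.60 in the wild type, within the range of the rat arrays.

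Pqbp1 encodes a polyglutamine-binding protein that associates with spliceosome components and whose human form is mutated in an X-linked intellectual disability. Probe 1 had 1.19 and 1.24 in the MEK set with NMDA and PD98059, 1.24 and 1.10 with NMDA, and 1.20 and 1.08 with control. In experiments 1 and 2 of the NOS set it had 1.31 and -0.41 with NMDA and nitroarginine, 1.21 and -0.43 with NMDA, and 1.17 and -0.54 with control. The probe thus stood above 1 in 9 rat arrays and below -0.4 in the 3 arrays of NOS experiment 2, with the treatments close together in each experiment. Cortex lay between these levels, at 0.64 in the knockout and 0.39 in the wild type.

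Probe 2 of Pqbp1 had 0.79 and 0.67 with NMDA and PD98059, 0.76 and 0.67 with NMDA, and 1.40 and 0.50 with control in the MEK set. The controls held both the highest and the lowest of these 6 values. In the NOS set it had 0.46 and -0.76 with NMDA and nitroarginine, 0.34 and -0.84 with NMDA, and 0.44 and -0.31 with control. As on probe 1, the 3 arrays of experiment 2 were far below those of experiment 1. Cortex had -0.14 in the knockout and -0.50 in the wild type. Across the 14 arrays the probes of Pqbp1 correlated at r = 0.867, but with each experiment's mean removed r was -0.23 over the 12 rat arrays, and -0.28 without the moved control. Both probes thus fell in NOS experiment 2, and within experiments they showed no positive correlation. How far the r of 0.867 rests on those 3 arrays was not computed.

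**Figure D1:**
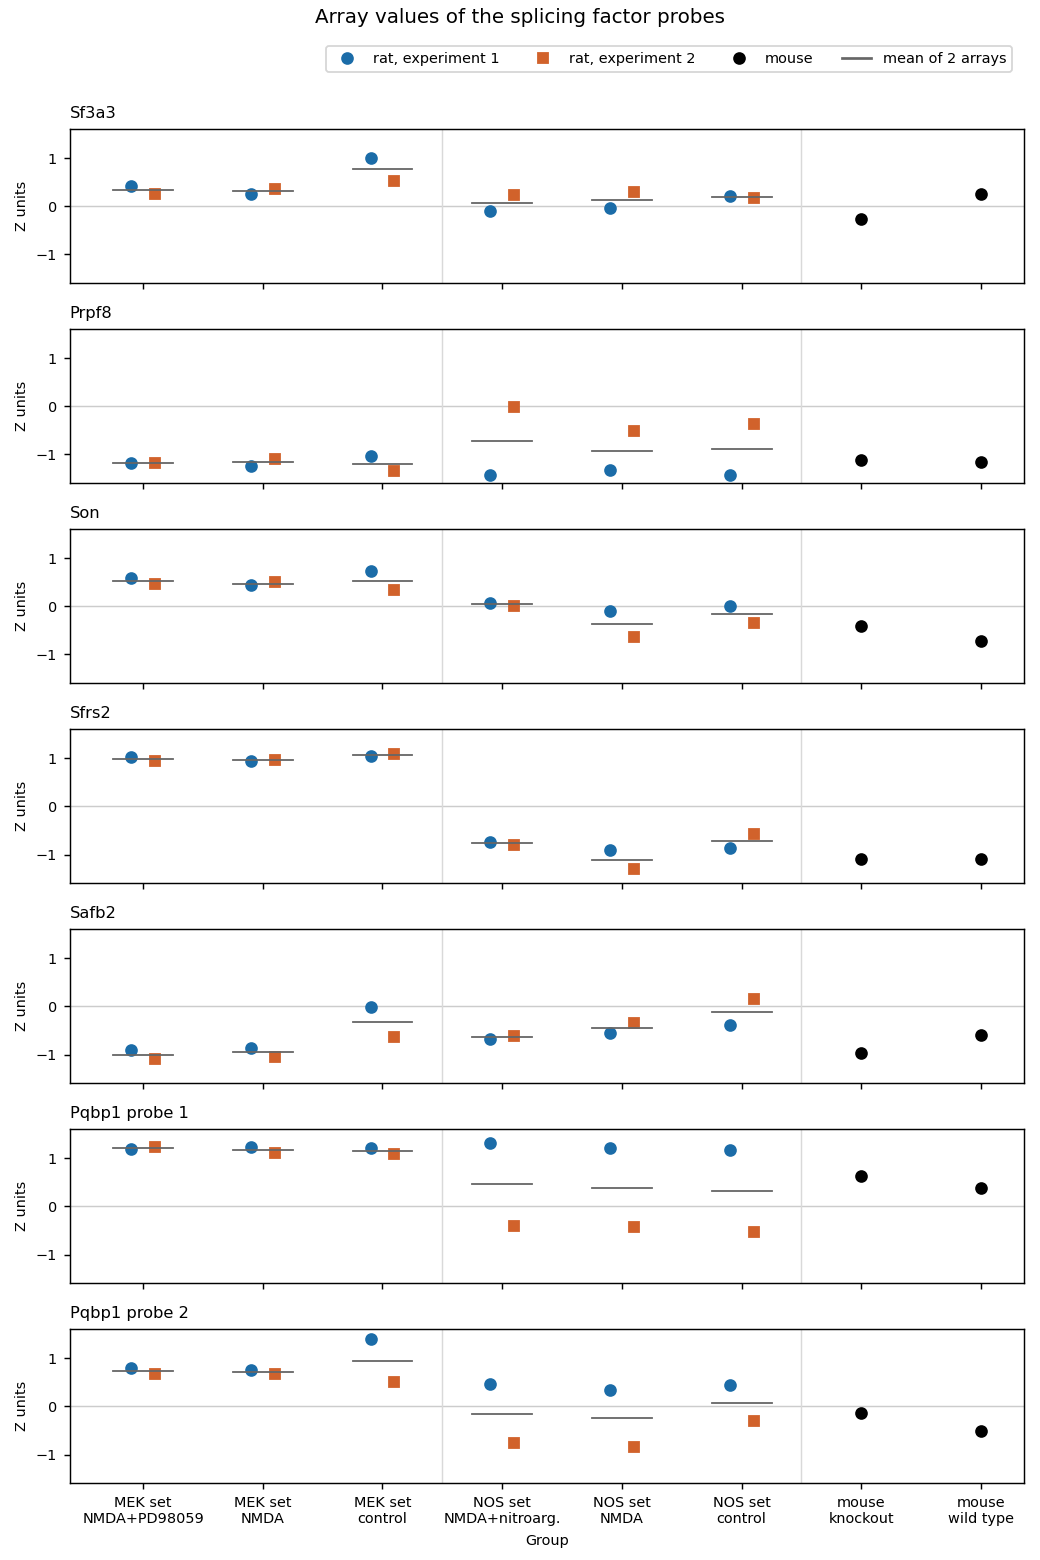
Z-score of each splicing factor probe (vertical axes, Z units) in every array, by group along the horizontal axis. Blue circles are rat experiment 1, orange squares rat experiment 2, black circles the mouse arrays, and grey lines the mean of 2 arrays. Sfrs2 stands near 1 in the MEK set and below -0.5 in all other arrays, and both Pqbp1 probes split by experiment in the NOS set.

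NMDA was compared with control to see whether activating the receptor altered the transcripts. Safb2 had the largest difference of the 7 probes, -0.48 Z units over both sets (SE 0.20, 95% confidence interval -0.93 to -0.02, n = 4 arrays each). By experiment it was -0.85 and -0.40 in the MEK set and -0.16 and -0.51 in the NOS set, so NMDA was below control in 4 of 4. It was the 12th lowest difference among 1152 probes, where the SD of the differences was 0.19. The limma p was 0.042 before adjustment and the adjusted p, by the Benjamini-Hochberg method over all 1152 probes, was 1.0. The difference did not pass the threshold of 0.05. Without the moved control array it was -0.32 with an adjusted p of 1.0, and without NOS experiment 2 it was -0.39 with an adjusted p of 0.926.

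Sfrs2 was also lower with NMDA in 4 of 4 experiments, by -0.10 and -0.12 in the MEK set and -0.03 and -0.74 in the NOS set. The mean difference was -0.25 (SE 0.16, interval -0.61 to 0.11), and its adjusted p in limma was 1.0. Most of it came from NOS experiment 2, without which it was -0.07, and it was 0.15 when a running median along the probe order was removed from each array. Among all probes 4.6% were lower with NMDA in all 4 experiments, against these 2 of the 7 splicing factor probes. Pqbp1 probe 1 was higher in all 4, by 0.02 to 0.10, as were 10.2% of all probes. Its mean difference was 0.05 (SE 0.50).

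Sf3a3 differed by -0.75 and -0.17 in the MEK set and by -0.25 and 0.12 in the NOS set. Its mean difference was -0.26 (SE 0.18), and -0.14 without the moved control array. Pqbp1 probe 2 differed by -0.64 and 0.16 in the MEK set and by -0.10 and -0.53 in the NOS set, with a mean of -0.28 (SE 0.37) that was -0.05 without that array. Son (-0.13, SE 0.19) and Prpf8 (-0.0027, SE 0.35) had both signs among their experiments, and without that array their means were -0.03 and 0.08. For Sfrs2 the mean without it was -0.26, and for Pqbp1 probe 1 it was 0.08. Without NOS experiment 2 the means were -0.36 for Sf3a3, -0.17 for Pqbp1 probe 2, -0.09 for Son, 0.06 for Prpf8 and 0.03 for Pqbp1 probe 1. In limma the adjusted p was 1.0 for all 7 probes, and 0% of the 1152 probes passed, with 11 at an unadjusted p under 0.05. The median difference of the 7 probes was -0.25, with 6 below 0, Prpf8 at -0.0027 among them. The median over all probes was 0.0004, with 49.9% below 0. Without the moved control array the means of Safb2, Sf3a3, Pqbp1 probe 2 and Son were nearer to 0, and that of Prpf8 was above it. The median of the 7 probes was then -0.05, the value of Pqbp1 probe 2. The list median of -0.25 thus rested largely on that array, and the probes were not tested as a set.

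**Figure D2:**
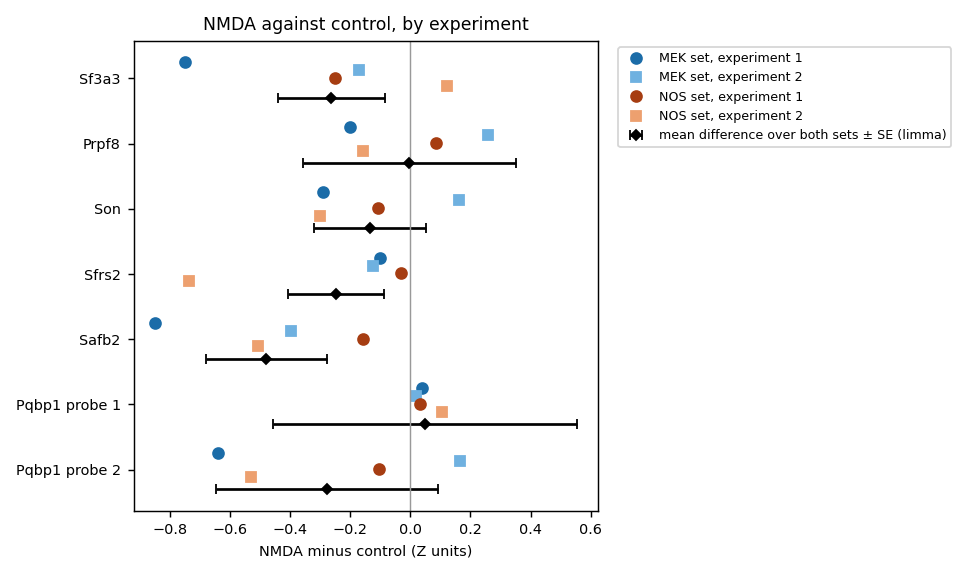
NMDA minus control in Z units (horizontal axis) for each splicing factor probe. Coloured points are the 4 experiments, and black diamonds with bars the mean over both sets ± SE from limma. All 4 points of Safb2 and of Sfrs2 lie below 0, and all 4 of Pqbp1 probe 1 above it.

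Taken by set, the largest NMDA differences in the MEK set were those of Safb2, at -0.62 (SE 0.29), and Sf3a3, at -0.46 (SE 0.25), each with an adjusted p of 0.998 in limma. In the NOS set they were those of Sfrs2, at -0.38 (SE 0.23), Safb2, at -0.33 (SE 0.29), and Pqbp1 probe 2, at -0.32 (SE 0.52), each with an adjusted p of 1.0. Without the moved control array, the MEK set values were -0.31 for Safb2 and -0.22 for Sf3a3. The sign turned for Pqbp1 probe 2, at 0.21 without that array and -0.24 with it, and for Son, at 0.14 without it and -0.06 with it. Of all probes 0% passed in either set, with 16 at an unadjusted p under 0.05 in the MEK set and 2 in the NOS set. The NMDA effect in the NOS set minus that in the MEK set was 0.29 (SE 0.40) for Safb2, 0.40 (SE 0.36) for Sf3a3 and -0.27 (SE 0.32) for Sfrs2. For all 7 probes the adjusted p of this difference was 0.999, 0% of the 1152 probes passed, and 4 had an unadjusted p under 0.05.

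The labels number the experiments, so the fit was repeated with experiment as a block, which changed no call. Without the block the difference between experiments counted as spread, and the standard error of every splicing factor probe was larger. Over both sets that of Pqbp1 probe 1 was 0.50 without the block and 0.10 with it. The standard error of Safb2 became 0.12, its unadjusted p 0.0035 and its adjusted p 0.384 over both sets. In that fit 0 of 1152 probes passed, while 128 had an unadjusted p under 0.05.

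Neuron markers on the array numbered 4 of the 17 genes listed, on 5 probes: Uchl1 on 2, and Tuba1a, Nefl and Stmn2 on 1 each. Their mean Z-score per array was 0.25 to 0.41 with NMDA and PD98059, 0.42 to 0.51 with NMDA and -0.17 to 0.16 with control in the MEK set. In the NOS set it was 0.26 to 0.30 with NMDA and nitroarginine, 0.35 to 0.58 with NMDA and 0.11 to 0.20 with control. The mean of NMDA minus control was 0.59 and 0.35 in experiments 1 and 2 of the MEK set and 0.15 and 0.47 in those of the NOS set, of the sign opposite to that of Safb2. The first of these 4 values rests on the moved control. Astrocyte markers were 2 of 11 genes, Gfap on 2 probes and Glul on 1. Their mean was -0.19 to -0.15 with NMDA and PD98059, -0.19 to -0.16 with NMDA and -0.20 to -0.03 with control in the MEK set. In the NOS set it was -0.08 to 0.09 with NMDA and nitroarginine, 0.11 to 0.14 with NMDA and -0.11 to 0.01 with control. Csf1r was the only 1 of 8 microglial markers, and no oligodendrocyte or endothelial marker was named on the array. In such bulk samples, fewer cells of a type and less RNA per cell cannot be told apart, and the part of the markers in the splicing factor values was not tested.

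PD98059 given with NMDA was compared with NMDA alone to see whether blocking MEK altered the response. The differences of the splicing factor probes were small, between -0.05 for Safb2 and 0.05 for Son on average (SE 0.29 and 0.26). In experiments 1 and 2 they were -0.05 and -0.06 for Safb2, which was lower in both, as were 12.5% of all probes. Pqbp1 probe 2, at 0.03 and 0.01, was higher in both, as were 24.4% of all probes. Sf3a3 had 0.17 and -0.11, Prpf8 0.06 and -0.08, Son 0.14 and -0.04, Sfrs2 0.07 and -0.01, and Pqbp1 probe 1 -0.05 and 0.14, each with opposite signs. Thus the values of Safb2 and Sf3a3 that stood below control with NMDA stood there with PD98059 too. The comparison shares its NMDA arrays with that of NMDA and control.

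For these 7 probes the adjusted p in limma was 1.0 and the 95% intervals were wide, -0.70 to 0.59 for Safb2 and -0.48 to 0.54 for Sfrs2. These intervals hold the difference between experiments of both sets, since all rat arrays share 1 estimate of the spread. With the experiment block the SE went from 0.29 to 0.18 for Safb2 and from 0.71 to 0.14 for Pqbp1 probe 1. Of all probes 0% passed, with 0 at an unadjusted p under 0.05 and 5 with the experiment block. The median was 0.03 over the 7 probes and 0.02 over all 1152.

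Nitroarginine given with NMDA was compared with NMDA alone to see whether blocking nitric oxide synthesis altered the response. Son had the largest difference, 0.41 Z units (SE 0.26, interval -0.18 to 1.0, n = 2 arrays each), with 0.17 in experiment 1 and 0.66 in experiment 2. Sfrs2 followed, at 0.34 (SE 0.23), with 0.17 and 0.50. The NMDA array of experiment 2 also held the lowest rat value of both genes, -0.64 for Son and -1.31 for Sfrs2. That array enters the comparison of NMDA with control too, so the 2 comparisons are not independent. Without experiment 2 the nitroarginine differences were 0.17 for each gene, from 1 array a group.

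Prpf8 had -0.09 and 0.50 and thus no common sign. Both probes of Pqbp1 were slightly higher with nitroarginine in both experiments, by 0.10 and 0.03 on probe 1 and by 0.13 and 0.08 on probe 2. With Son and Sfrs2 this made 4 of the 7 probes higher in both experiments, against 29.5% of all probes. Safb2, at -0.11 and -0.26, and Sf3a3, at -0.06 and -0.05, were lower in both, against 31.4% of all probes. Safb2 therefore stood lowest with NMDA and nitroarginine, next with NMDA and highest with control in each NOS experiment, with a mean nitroarginine difference of -0.19 (SE 0.29).

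All 7 probes had an adjusted p of 0.998 in limma, and 0% of the 1152 probes passed, with 1 at an unadjusted p under 0.05. With the experiment block the unadjusted p of Son was 0.038 and its adjusted p 0.956. The median nitroarginine difference was 0.10 for the 7 probes and -0.01 for all probes, whose differences had an SD of 0.20.

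**Figure D3:**
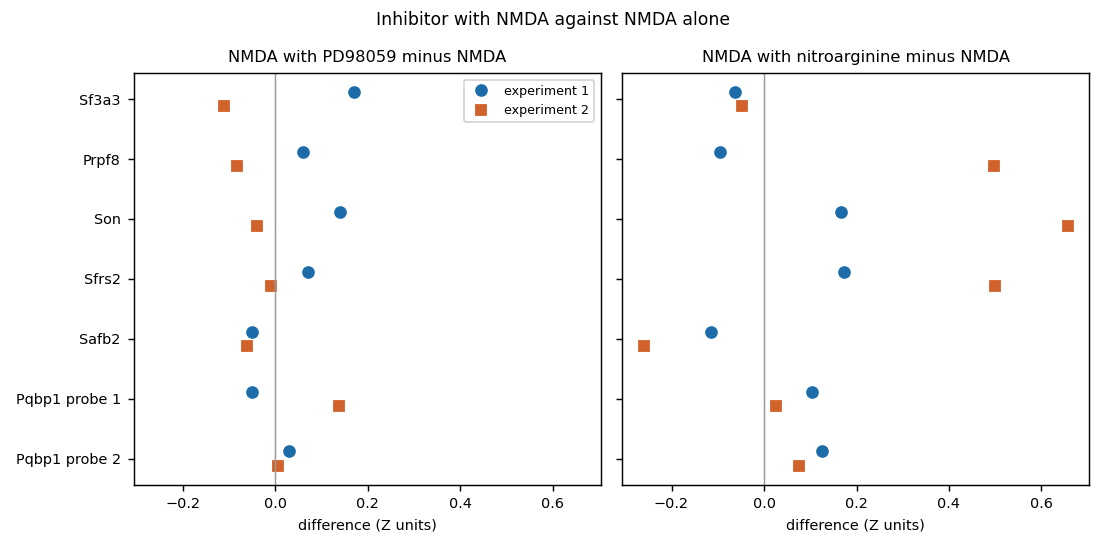
NMDA with PD98059 minus NMDA (left panel) and NMDA with nitroarginine minus NMDA (right panel), in Z units, for each splicing factor probe. Blue circles are experiment 1 and orange squares experiment 2. The PD98059 points lie between -0.11 and 0.17, and Son, Sfrs2 and Prpf8 lie near or above 0.50 in nitroarginine experiment 2.

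Knockout cortex was set against wild-type cortex to see what loss of neuronal nitric oxide synthase altered. With 1 array of each there was no test and no error. Sf3a3 had the largest difference of the splicing factor probes, -0.498 Z units, followed by Safb2 at -0.37. Pqbp1 was higher in the knockout on both probes, by 0.36 on probe 2 and 0.25 on probe 1, and Son was higher by 0.30. Prpf8 differed by 0.05 and Sfrs2 by -0.0004. No splicing factor probe differed by more than 0.5 Z units, a distance passed upward by 0.781% and downward by 1.56% of all probes. The SD of the difference over all probes was 0.20, and the arrays correlated at 0.980. The neuron markers averaged -0.04 in the knockout and -0.14 in the wild type, and the astrocyte markers -0.52 in the knockout and -0.55 in the wild type.

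Among the rat arrays, the largest differences on the splicing factor probes were between sets and experiments, on Sfrs2, Pqbp1 and Prpf8. On Safb2 some NMDA differences of single experiments were larger than those between sets or experiments. Sfrs2 averaged -0.84 in NOS experiment 1 and 0.999 in the MEK set, a difference of -1.84 Z units. Over all probes this difference had a median of 0.09 and an SD of 0.48, and 7 of 1152 probes had 1 as large in either direction, Sfrs2 included. Mean cortex minus the MEK set mean was -2.09 for this probe, and cortex lay within the range of the NOS set. Son differed by -0.52 between NOS experiment 1 and the MEK set, Sf3a3 by -0.44, Pqbp1 probe 2 by -0.38 and Prpf8 by -0.22. Pqbp1 probe 1, at 0.06, and Safb2, at 0.22, lay nearer to the median of all probes. Against the 5 MEK set arrays without the moved control, the difference was -1.83 for Sfrs2, -0.48 for Son, -0.34 for Sf3a3, -0.26 for Pqbp1 probe 2, -0.19 for Prpf8, 0.06 for Pqbp1 probe 1 and 0.37 for Safb2. On Sfrs2, Son and Pqbp1 probe 2 all 6 NOS set arrays were below all 6 MEK set arrays, as on 11.9% of all probes. No splicing factor probe had the opposite order, which 14.9% of all probes had. The sets hold different experiments, so set and experiment cannot be told apart, and what differed between them was not tested.

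**Figure D4:**
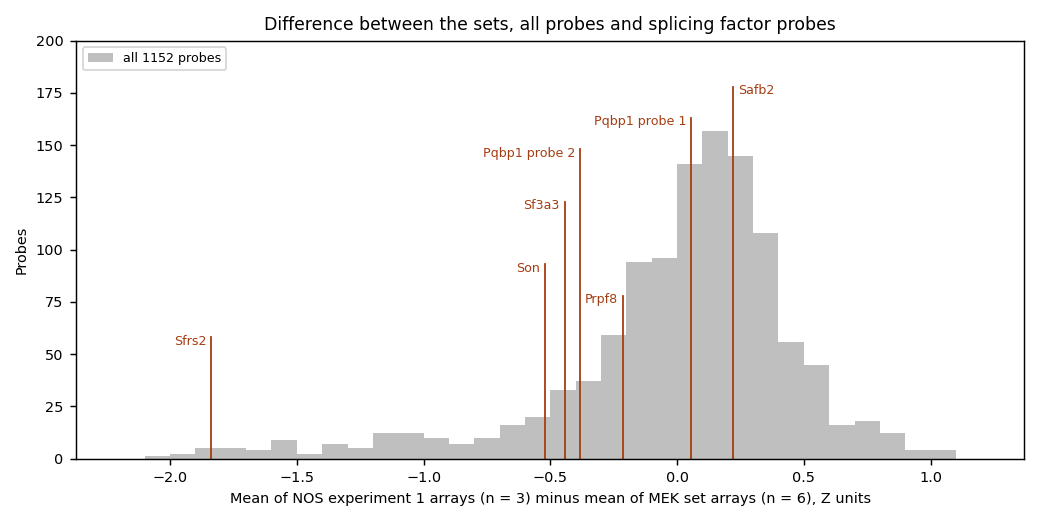
Distribution over all 1152 probes (grey bars, number of probes on the vertical axis) of the mean of the 3 arrays of NOS experiment 1 minus the mean of the 6 MEK set arrays, in Z units. Brown lines mark the splicing factor probes, their heights serving only to separate the names. Sfrs2, at -1.84, lies in the lower tail, and the other 6 lie between -0.52 and 0.22.

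Within the NOS set, experiment 2 minus experiment 1 was -1.69 for Pqbp1 probe 1 and -1.05 for its probe 2, and 1.09 for Prpf8. Differences as large in either direction were found on 69, 231 and 216 of the 1152 probes, whose SD was 0.89. For Sfrs2 the difference was -0.06, for Sf3a3 0.21, for Safb2 0.27 and for Son -0.31. Of the variance between the 6 NOS set arrays, experiment took 99.5% and treatment 0.42% for Pqbp1 probe 1, and 93.0% and 2.40% for Prpf8. Over all probes the shares were 87.0% for experiment and 6.76% for treatment. Safb2 had 24.0% for experiment and 61.6% for treatment, and Sfrs2 1.65% and 57.6%. In the MEK set, where the moved control enters the shares, all probes had 19.3% for experiment and 44.5% for treatment. There Safb2 had 21.1% and 70.7%, Sfrs2 2.14% and 80.3%, Pqbp1 probe 1 31.9% and 23.3%, and Prpf8 9.98% and 1.43%. With 6 arrays and 3 treatments in each set, noise alone also gives such shares, on average larger for treatment than for experiment. The shares are thus descriptions only.

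Genes whose pattern was most like each splicing factor gene were sought among 382 or 383 other named probes, by r over the 12 rat arrays after each experiment's mean was removed. In parentheses each r is followed by that over the 9 arrays without NOS experiment 2 and that over the 11 arrays without the moved control. The same arrays enter both sides of every r. Son was most like Prr12 (0.95, 0.91, 0.95), its fellow splicing factor gene Prpf8 (0.89, 0.65, 0.88) and Rnd3 (0.87, 0.86, 0.88). Son and Prpf8 are probes 5 and 10 in the probe order, and the part of position in their likeness was not tested. Sf3a3, probe 8, had r of 0.22 with Son and 0.15 with Prpf8 over the 12 arrays. Sf3a3 was most like the creatine transporter gene Slc6a8 (0.98, 0.99, 0.95), Vps54 (0.96, 0.97, 0.88) and Cisd2 (0.95, 0.98, 0.86). Prpf8 was most like Erlin1 (0.92, 0.92, 0.92), Pbxip1 (0.92, 0.86, 0.92) and Son.

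Safb2 was most like Golm2 (0.95, 0.99, 0.92), the valyl-tRNA synthetase gene Vars (0.87, 0.94, 0.76) and Tmcc2 (0.87, 0.86, 0.72). Tmcc2 (0.97, 0.96, 0.94) also stood beside Pqbp1 probe 2, with the protein kinase C gene Prkca (0.98, 0.97, 0.95) and the brain creatine kinase gene Ckb (0.95, 0.95, 0.95). Pqbp1 probe 1 was most like Usp48 (0.83, 0.80, 0.86), Kcnrg (0.81, 0.94, 0.82) and Tm9sf3 (0.76, 0.72, 0.77). Sfrs2 was most like Ap2b1 (0.94, 0.78, 0.95), Babam1 (0.94, 0.68, 0.96) and Idh3g (0.87, 0.11, 0.93), so its likeness to Idh3g rested on NOS experiment 2. The 95th percentile of r over the probes compared, on the 12 arrays, was 0.61 to 0.80. Among the splicing factor probes themselves the highest r were 0.89 between Son and Prpf8, 0.77 between Safb2 and Pqbp1 probe 2, and 0.72 between Safb2 and Sf3a3. Without the moved control these were 0.88, 0.49 and 0.30, so the likeness of Safb2 to Sf3a3 rested largely on that array.

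Other genes of RNA splicing were looked up from a list of 201 symbols, of which 5 further genes were named on the array, with 1 probe each. They were Srsf1 and Srsf5, which encode serine and arginine-rich proteins like Sfrs2, Hnrnpa1, whose protein often opposes them at splice sites, the RNA helicase gene Ddx5, and Rbfox2, which encodes a regulator of alternative exons in neurons. In limma 0 of these 5 passed in any of the 6 rat comparisons. Their NMDA differences over both sets were 0.16 for Srsf1, 0.13 for Hnrnpa1, -0.04 for Ddx5, -0.12 for Srsf5 and -0.27 for Rbfox2, with an adjusted p of 1.0 for each. Srsf1 was higher with NMDA in 4 of 4 experiments, by 0.07 to 0.29, as were 10.2% of all probes. Its mean of 0.16 had an SE of 0.19. Sfrs2 was lower in 4 of 4, as were 4.6% of all probes, and most of its mean difference came from NOS experiment 2. Rbfox2 had NMDA differences of -0.51 and 0.06 in the MEK set and 0.16 and -0.80 in the NOS set, without a common sign. Between knockout and wild-type cortex the 5 genes differed by -0.14 to 0.23 Z units. Srsf5 stood at 0.98 to 1.15 in NOS experiment 1, within its MEK set range of 0.75 to 1.17, and at 0.15 to 0.38 in NOS experiment 2, below that range.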

How the data were processed

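The deposited values are Z-scores per array: every column has a mean near 0 and an SD of 0.857 to 0.999. How the authors made these scores, and the background correction, filter and direction behind them, are not given in the sources used here, and higher was read as brighter. The tests assume scores that are comparable between arrays, and a shift common to all probes cannot be seen. Array medians ran from -0.15 to 0.24. Gene names came from the platform annotation, which is old, and from RefSeq's rat table.

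The column of MEK set control experiment 1 was moved down by 1 row, which left its first probe without a value. The next best shift had a correlation of 0.126. Limma 3.58.1 in R 4.3.3 (statmod 1.5.0) fitted 6 group means over the 12 rat arrays, with 6 residual degrees of freedom, two-sided tests and Benjamini-Hochberg adjustment over 1152 probes at 0.05. The fit was tried on simulated data with independent noise and no experiment effect. That cannot show how it behaves where the arrays of an experiment deviate together. Experiment pairs the samples by the labels, and same-numbered arrays deviated together in the NOS set (r = 0.874 to 0.930) but not in the MEK set (-0.145 to 0.073). Tables and plots were made in Python 3.11.15 (pandas 2.3.3, numpy 2.4.6, matplotlib 3.10.9). Alternatives were the experiment block, the column as deposited, leaving out arrays or experiments, other scalings, moderation and filters. The number of arrays limits the precision. Every member of the set, and each other splicing gene named on the array, is named. The genes, lists and tests were chosen with earlier results of these data known.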

Additional observations from a re-analysis of the deposited data

How the results depend on the processing

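The 7 splicing factor probes gave 42 results over 6 comparisons, and their 1144 values under the alternatives held 0 with an adjusted p under 0.05 in limma, the smallest being 0.0848 (Sfrs2 in the NOS set without NOS experiment 1). In 115 the sign was the other one. The NMDA difference of Safb2 over both sets ran from -0.81 to -0.19 under 26 alternatives, with an adjusted p of 0.211 to 1.0. That of Sfrs2 ran from -0.42 to 0.15, of Sf3a3 from -0.41 to 0.15, of Son from -0.40 to 0.33, of Pqbp1 probe 1 from -0.38 to 0.48, of Pqbp1 probe 2 from -0.57 to 0.37, and of Prpf8 from -0.57 to 0.26. With the column as deposited, the MEK set difference was -1.11 for Prpf8 and 1.06 for Pqbp1 probe 2, since unlike probes were then subtracted. With a running median over 25 probes removed, Son had 0.76 and Sfrs2 0.37 in the MEK set, and the cause was not tested. A filter to the brighter probes dropped Prpf8, Safb2 and Sfrs2.

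Over all probes, the count past the threshold was 0 with experiment as a block in each of the 6 comparisons. With trend and robust moderation added to the block it was 3 over both sets and 5 in the MEK set, none of them a splicing factor probe. Leaving out arrays or experiments gave 0 to 1 over both sets, 0 to 1 in the MEK set and 0 to 1 for the difference between the sets, the 1 arising without the MEK set control, or all MEK set arrays, of experiment 2, when the moved column is the lone control and is assumed to vary like the other groups. The cause was not tested. With 2 arrays a group and signal over background unknown, small differences were not detectable.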
